A study of Drosophila melanogaster with 3 samples.

Results

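The 8 Hox genes of Drosophila melanogaster lie in the Antennapedia complex, which holds lab, pb, Dfd, Scr and Antp, and in the bithorax complex, which holds Ubx, abd-A and Abd-B, both on chromosome arm 3R. They were taken by name, as 8 of 13945 protein-coding genes, and each was given a window of its gene body plus 20 kb on each side. The windows held 21 of the 7248 reproducible binding summits of the protein CG10669, 13 in the Antennapedia complex and 8 in the bithorax complex. A summit is the position within a peak at which the peak caller placed its maximum.

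Binding was measured by chromatin immunoprecipitation with sequencing (ChIP-seq), which recovers and sequences the DNA fragments bound by a protein, in whole prepupae of both sexes pooled from a transgenic line that carried CG10669 with GFP at its C-terminus. The group had 3 biological replicates, and no other genotype, stage or treatment was compared. The descriptions of the samples mention an input control, but their assay and antibody entries and their called peaks are those of a pull-down, which is how they were used. The antibody field names CG10669 itself, so recovery of an untagged protein beside the tagged one cannot be told apart, and an age field of 24 days does not match the prepupal stage and was not used. In whole animals, binding in few cells and weak binding in many cells cannot be told apart.

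Hox genes encode homeodomain transcription factors that give body segments their identity along the head-to-tail axis. Within each complex, the order of the genes on the chromosome follows the order of the body regions in which they act. Their expression is controlled by large stretches of intronic and intergenic enhancers and is held on or off by Trithorax and Polycomb group proteins, which act through response elements in the same DNA. At the onset of metamorphosis, when the prepupa forms, Hox proteins shape the imaginal discs and the nervous system of the adult.

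The sequences at 7 summits are printed because the results turn on them: the summit inside lab, the strongest summit of each complex, the summit at an Antp start site, and the intronic summits of Ubx and Abd-B. Each run is 201 bases long, centred on the summit, from the plus strand of dm6. Capitals mark GAGAG, the motif of GAGA factor, and CACTG, the core of the run of 8 bases most in excess at summits over flanks, on either strand, so that CTCTC and CAGTG are also in capitals.
lab intron, chr3R:6674651-6674851: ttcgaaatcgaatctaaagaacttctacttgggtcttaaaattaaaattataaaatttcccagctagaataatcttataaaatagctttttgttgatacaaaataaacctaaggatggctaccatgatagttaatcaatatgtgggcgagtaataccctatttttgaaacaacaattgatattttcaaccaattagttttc
Antp intron, chr3R:6914454-6914654: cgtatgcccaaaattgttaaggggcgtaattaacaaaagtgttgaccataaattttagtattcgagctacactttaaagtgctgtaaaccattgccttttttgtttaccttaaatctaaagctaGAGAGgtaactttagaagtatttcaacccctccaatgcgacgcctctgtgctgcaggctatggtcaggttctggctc
Antp start site, chr3R:6933011-6933211: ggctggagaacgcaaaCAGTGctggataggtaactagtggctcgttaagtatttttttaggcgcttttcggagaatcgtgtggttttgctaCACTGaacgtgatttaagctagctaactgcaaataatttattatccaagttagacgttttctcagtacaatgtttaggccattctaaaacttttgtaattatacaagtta
Ubx intron, chr3R:16718062-16718262: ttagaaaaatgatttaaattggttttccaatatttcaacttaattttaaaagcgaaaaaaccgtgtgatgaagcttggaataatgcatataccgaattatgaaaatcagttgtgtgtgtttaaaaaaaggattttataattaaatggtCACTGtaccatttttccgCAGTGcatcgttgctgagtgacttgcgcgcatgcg
Abd-B intron, mid-gene, chr3R:16948773-16948973: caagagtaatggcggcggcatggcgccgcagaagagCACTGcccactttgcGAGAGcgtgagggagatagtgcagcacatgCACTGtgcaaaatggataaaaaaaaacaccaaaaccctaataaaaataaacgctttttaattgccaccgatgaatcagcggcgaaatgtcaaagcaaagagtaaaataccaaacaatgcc
Abd-B intron, near a start site, chr3R:16958184-16958384: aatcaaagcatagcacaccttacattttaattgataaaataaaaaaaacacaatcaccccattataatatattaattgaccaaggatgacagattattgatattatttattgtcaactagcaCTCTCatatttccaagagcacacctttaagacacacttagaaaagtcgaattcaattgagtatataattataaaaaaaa
CG18622 start site, Abd-B window, chr3R:16986555-16986755: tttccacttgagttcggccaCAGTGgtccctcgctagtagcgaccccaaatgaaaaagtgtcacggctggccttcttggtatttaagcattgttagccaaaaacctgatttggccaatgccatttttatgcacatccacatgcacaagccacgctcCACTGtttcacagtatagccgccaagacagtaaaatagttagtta

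All 8 genes had a reproducible summit in the window, beside 79.4% of protein-coding genes with windows made the same way. In 5 of them (lab, pb, Antp, Ubx and Abd-B) a summit lay in the gene body, 11 summits in all. A summit in the body was found in 14.0% of all protein-coding genes and in 57.0% of those at least as long as Dfd, the shortest Hox gene. Dfd, Scr and abd-A had none in the body, and their summits lay in the flanks. The 3 summits of the Dfd window were also the 3 of the Scr window, since those genes are neighbours.

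**Figure D1:**
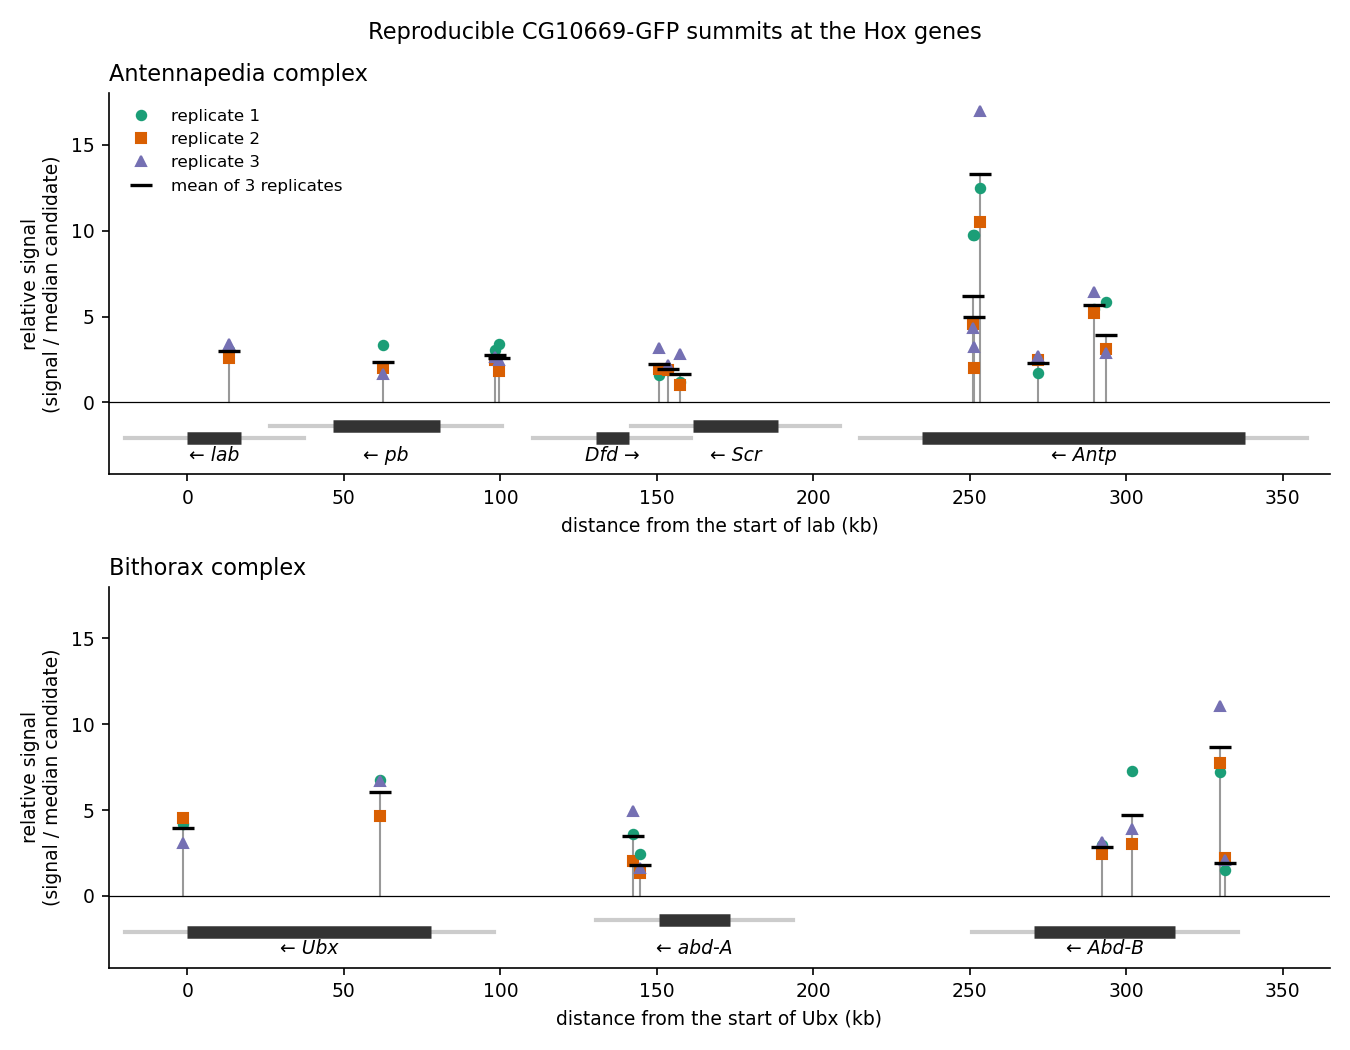
Positions of reproducible summits along the Antennapedia and bithorax complexes, in kb from the lowest coordinate of lab or Ubx, with the relative signal of each replicate as a point, the mean of 3 as a dash, gene bodies as black bars and windows as grey lines. The highest mean of the Antennapedia complex, 13.3, lies in an Antp intron, and that of the bithorax complex, 8.67, lies in the Abd-B flank.

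Strength was given as the relative signal, the caller's signal divided by the median signal of all 30000 candidate peaks of the same list, because each list had its own scale. Ranks run from 1 for the highest signal, and a replicate's list was its 7248 strongest candidates. A summit was recovered in a replicate where a summit of that list lay within 200 bp. Read depth is not given in the sources used here, and the replicates shared 1 control file.

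The strongest Hox summit lay in an intron of Antp, which directs thoracic identity, at 6914554. Replicates 1, 2 and 3 gave it relative signals of 12.5, 10.5 and 17.0, averaging 13.3 ± 3.32 (SD, n = 3). It ranked 505 among the reproducible summits and 756, 621 and 308 in replicates 1, 2 and 3. In each replicate it was the highest of the 21. The nearest annotated start site was that of the non-coding gene lncRNA:CR43252, 9872 bp away.

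Antp, at 6896253 to 6999228 on the minus strand, held 6 summits, all in its body and more than any other Hox gene, over the longest body of the 8 (103.0 kb). A close pair lay near the strongest one, at 6912569 and 6912780, with relative signals of 4.58 and 1.98 in replicate 2 and 4.35 and 3.25 in replicate 3. Replicate 1 had a single candidate for both, at 9.73, so the pair was resolved only in the other 2 replicates. Further upstream in the gene, the summit at 6951242 had 5.45, 5.20 and 6.42 (5.69 ± 0.645, SD, n = 3), the steadiest of the strong ones. The summit at 6954778 had 5.83, 3.13 and 2.88, with replicate 1 above the other 2. The annotated gene CG46458 overlaps Antp at all 6 summits, so these positions belong to both annotations.

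The sixth Antp summit, at 6933111, was the only reproducible summit within 500 bp of a start site of any Hox gene. It lay 271 bp upstream of the internal start site at 6932840, 1 of 3 annotated for Antp. Its relative signal was 1.71, 2.48 and 2.70 (2.30 ± 0.519, SD, n = 3), and it ranked 8710, 5131 and 5491, so it missed the list of replicate 1. Thus 1 of 8 Hox genes had a promoter summit, beside 15.4% of all protein-coding genes. The replicate lists gave 0, 1 and 1 Hox genes, and a window of 250 bp gave 0.

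The 8 Hox genes have 19 distinct start sites in the annotation. A pooled candidate of any strength lay within 500 bp of 8 of them, in 5 genes, beside 31.1% of all start sites of protein-coding genes and 30.5% of those genes. The start sites of lab, pb and Scr had no pooled candidate. Single replicates had candidates near the median there, for Scr at 0.987 in replicate 1 and 0.821 in replicate 2 at one site and 0.960 in replicate 3 at the other, and a weaker one for lab at 0.612 in replicate 3. A candidate in all 3 replicates was present at 1 site, the Antp one just described. The Dfd start site had a pooled candidate ranked 9120, below the reproducible list, with relative signals of 0.962 in replicate 2 and 1.77 in replicate 3 and none in replicate 1. At the single Ubx start site the pooled candidate ranked 17932, with a relative signal of 0.809, under the median candidate.

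Outside Antp, the summits of the Antennapedia complex were weak, with no relative signal above 3.40 in any replicate. In lab, which acts in the intercalary head segment and the midgut, the only summit lay in an intron at 6674751, 3839 bp downstream of the start site. Its values of 3.04, 2.56 and 3.40 (3.00 ± 0.425, SD, n = 3) were close together, and every replicate list held it. In pb, which shapes the adult mouthparts, the intronic summit at 6724011 had 3.36, 2.01 and 1.63 and was absent from the list of replicate 3. The other 2 summits of the pb window lay 17.5 kb and 18.9 kb upstream of pb beside bcd, the maternal anterior determinant gene. The nearer one, 111 bp from the bcd start site, had 3.06, 2.47 and 2.66 (2.73 ± 0.297, SD, n = 3).

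Between Dfd, which specifies the mandibular and maxillary segments, and Scr, which specifies the labial segment and the prothorax, there were 3 summits, at 6812263, 6815088 and 6818814. The first 2 lay in introns of the non-coding gene lncRNA:CR42651 and the third lay 1080 bp from tRNA:Lys-TTT-2-1. They ranked 6070, 6007 and 7073, among the weakest of the reproducible list. The third had 1.17, 0.989 and 2.83, and only the list of replicate 3 held it. For the second, the nearest candidate of replicate 1 ranked 8028, and another summit of that replicate's list within 200 bp made it count as recovered.

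In the bithorax complex, Ubx, which specifies the haltere-bearing segment, had 1 summit in its 77.8 kb body. It lay in an intron at 16718162, 16.3 kb downstream of the start site, and had 6.74, 4.62 and 6.70 (6.02 ± 1.21, SD, n = 3). All 3 replicates ranked it between 1712 and 2325. The annotated start site nearest to it was that of the non-coding gene asRNA:PS4, 1965 bp away. The other summit of the Ubx window lay outside the gene, 297 bp from the start site of modSP, a serine protease gene of the Toll pathway, with 4.18, 4.54 and 3.09.

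The abd-A gene, which acts in the abdominal segments, had 2 summits, both downstream of its body. The intergenic one at 16798859 had 3.58, 2.03 and 4.92 (3.51 ± 1.45, SD, n = 3), with replicate 2 the lowest. The one at 16801200, in an exon of lncRNA:CR45750 and 99 bp from the start site of lncRNA:TS16, had 2.43, 1.32 and 1.63, ranked 7101, and was held by 1 replicate list.

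Abd-B, which specifies the posterior abdomen and the genitalia, had 4 summits in its window, the most in the bithorax complex. In its body, the intronic summit at 16948873 had 2.96, 2.44 and 3.12 (2.84 ± 0.358, SD, n = 3), and the one at 16958284, 1997 bp downstream of a start site, had 7.29, 3.00 and 3.91 (4.73 ± 2.26, SD, n = 3). Upstream of Abd-B, 2 summits lay near different start sites of CG18622, a gene for which no role is given here. The one at 16986655, 195 bp downstream of its site, was the strongest of the complex at 7.20, 7.76 and 11.1 (8.67 ± 2.09, SD, n = 3) and ranked 1145. The other, at 16988051 and 319 bp upstream of another site, had 1.48, 2.22 and 2.09 and ranked 6930.

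**Figure D2:**
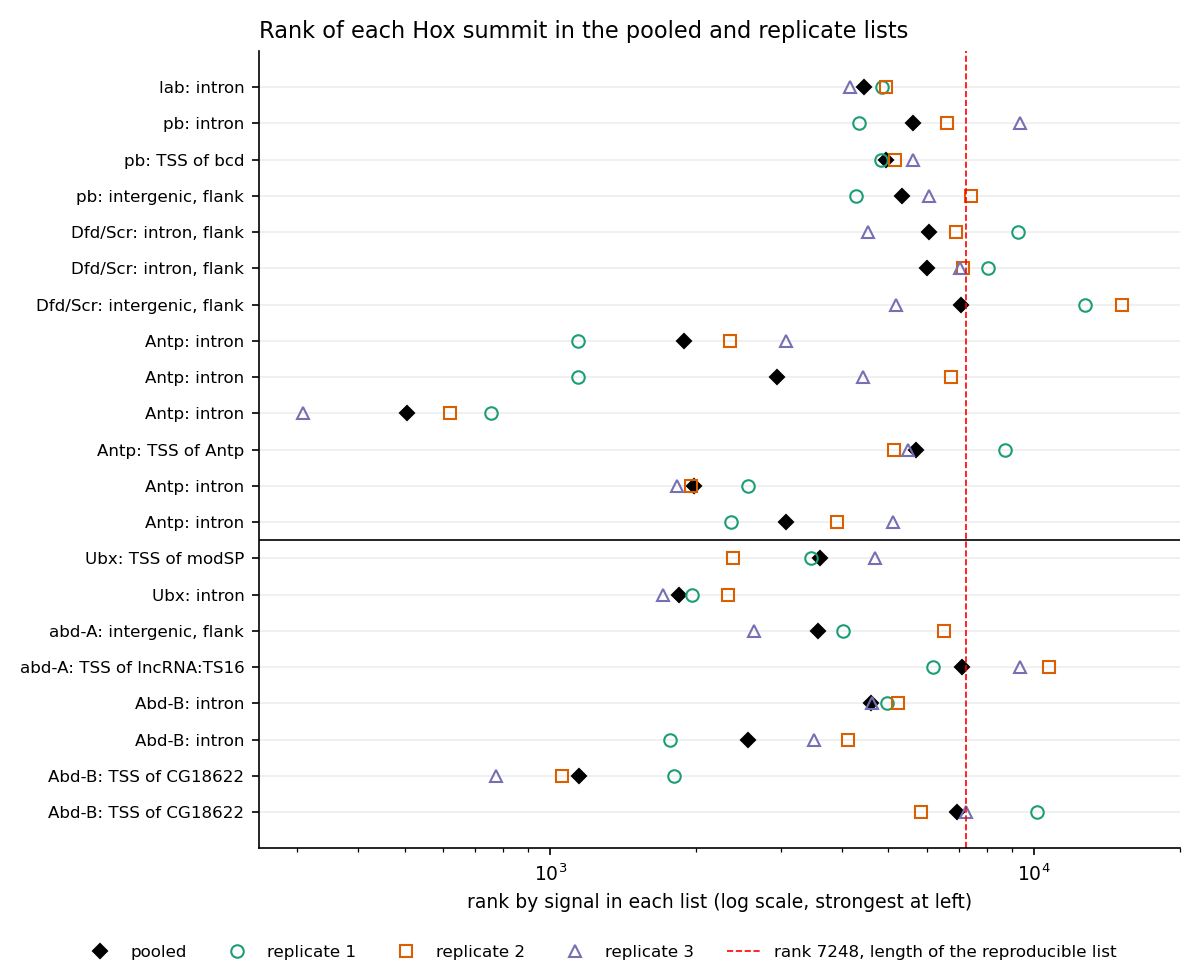
Rank of each of the 21 Hox summits in the pooled list and in the 3 replicate lists, on a log axis with the strongest at left. The Antp intron summit is leftmost in every list, and the points right of the dashed line at rank 7248 are candidates outside the replicate's list.

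Of the 21 summits, 14 were recovered in all 3 replicate lists, 66.7% with a 95% Wilson interval of 45.4% to 82.8%, beside 66.7% of all reproducible summits. The interval covers counting error only. A further 5 were held by 2 lists and 2 by 1. The full candidate lists of all 3 replicates held 21 of 21, beside 93.6% of all reproducible summits. By complex, 8 of 13 in the Antennapedia complex and 6 of 8 in the bithorax complex were held by all 3. The Hox summits ranked from 505 to 7101 with a median of 4442, and 10 were among the 3624 strongest.

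The Hox windows held fewer summits per length than the genome, a comparison added after seeing the data. They spanned 627.4 kb and held 23, 23 and 22 summits of the lists of replicates 1, 2 and 3, or 3.61 ± 0.0920 per 100 kb (SD, n = 3), beside 5.41 for the genome. Arm 3R, which holds both complexes, had 5.08 ± 0.158 per 100 kb (SD, n = 3). On the log2 scale the density of the Hox windows differed from that of the genome by -0.56, -0.56 and -0.63, a mean of -0.58 ± 0.04 (SD, n = 3), lower in 3 of 3 replicates. The exact two-sided sign-flip permutation test gave p = 0.25, the smallest value that 3 replicates allow. Among all 30000 candidates per replicate the difference was 0.27, -0.23 and -0.27, a mean of -0.07 ± 0.30 (SD, n = 3, exact permutation p = 1). The lower density was thus seen in every replicate among the strong candidates, while among all of them replicate 1 went against replicates 2 and 3. Among the 3624 strongest of each list it was -1.09.

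By gene, the density in the replicate lists was lowest in lab, at 1.75 per 100 kb in each replicate, and highest in Dfd, at 6.59 ± 2.28 (SD, n = 3). Abd-B followed with 5.49 ± 1.80, Antp with 4.90 ± 0.699 and Scr with 4.49 ± 1.50. Then came pb with 3.14 ± 0.777, Ubx with 2.55 ± 0.849 and abd-A with 2.12 ± 0.919. Neighbours in this order, from Dfd down to lab, differed by less than the larger of their SDs in every case. In the reproducible list, 7 of the 8 genes lay below the genome density, with Dfd, at 5.93, the exception, beside 57.7% of all protein-coding genes. Ubx and lab stood above 21.5% and 21.6% of protein-coding genes. The other Hox genes lay nearer the middle, with abd-A above 40.8%, pb above 42.4%, Antp above 43.0%, Scr above 44.7%, Abd-B above 47.8% and Dfd above 58.4%.

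**Figure D3:**
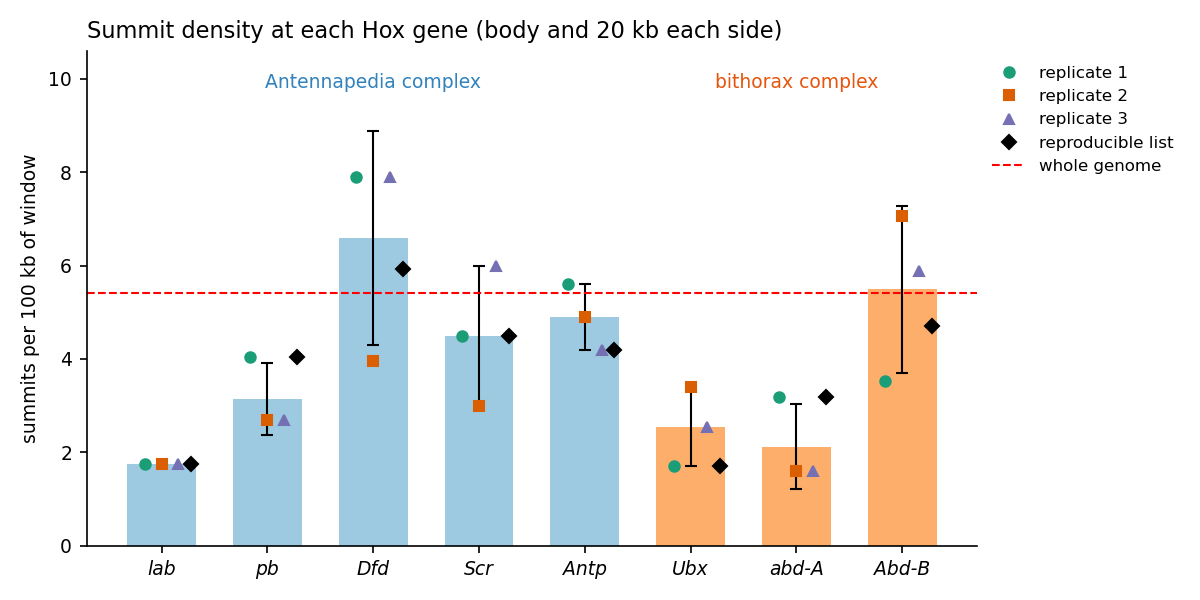
Summits per 100 kb in the window of each Hox gene, with 1 point per replicate list, a bar for their mean with its SD and a diamond for the reproducible list. The means run from 1.75 in lab to 6.59 in Dfd, and the dashed line marks the genome density of 5.41.

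The density of the 2 complexes differed by less than the replicate spread, but the ratio moved with the setting. The Antennapedia complex held 16, 12 and 13 summits of the replicate lists in 361.8 kb, 3.78 ± 0.575 per 100 kb (SD, n = 3). The bithorax complex held 7, 11 and 9 in 265.7 kb, 3.39 ± 0.753 per 100 kb (SD, n = 3). The log2 ratio of bithorax to Antennapedia density was -0.75, 0.32 and -0.09, with a mean of -0.17 ± 0.54 (SD, n = 3, exact two-sided sign-flip permutation p = 0.75), and replicate 2 went against the other 2. Without replicate 1 the mean was 0.12. In gene bodies alone it was -0.73 ± 0.63, and in the 3624 strongest of each list 0.94 ± 0.43 (SD, n = 3), higher in the bithorax complex, each with an exact permutation p of 0.25. Of the 5 summits within 500 bp of a start site of a gene other than the Hox genes, 1 lay in the Antennapedia and 4 in the bithorax windows, and without them the ratio was -0.87 ± 0.43 (SD, n = 3, exact permutation p = 0.25).

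Median relative signal was slightly higher in the bithorax complex in each replicate. It was 3.36, 2.47 and 2.88 in the Antennapedia complex (2.90 ± 0.443, SD, n = 3) and 3.88, 2.72 and 3.51 in the bithorax complex (3.37 ± 0.594, SD, n = 3). The log2 ratio was 0.21 ± 0.08 (SD, n = 3), higher in 3 of 3 replicates, with an exact two-sided sign-flip permutation p of 0.25, the smallest possible. It was -0.010 with flanks of 50 kb and -0.12 among the 3624 strongest, the 2 of 12 alternatives that reversed its sign. Without summits at start sites of other genes it was 0.48 ± 0.18 (SD, n = 3, exact permutation p = 0.25). Both complexes lay under the median of all reproducible summits, 4.15, 3.20 and 3.69 (3.68 ± 0.475, SD, n = 3), in each replicate.

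Most Hox summits lay in introns and, counting protein-coding genes only, far from start sites. Introns held 12 of 21 (57.1%), beside 48.1% of all reproducible summits. Promoters, within 500 bp of a start site of a protein-coding gene, held 5 (23.8%, beside 27.1%), and 4 of those 5 were promoters of bcd, modSP or CG18622. Intergenic sequence held 3 (14.3%, beside 21.2%), 1 lay in a non-coding exon, and none lay in a coding exon or an untranslated region. The median distance to the nearest coding start site was 7.13 kb, beside 2.16 kb over all summits, and 11 of 21 lay over 5 kb away (52.4%, beside 33.1%). Start sites of non-coding genes were left out of this distance, and some lay nearer. They lay 99 bp from the summit at 16801200, 1080 bp from 6818814, 1291 bp from 6815088 and 1444 bp from 6812263. Others lay 1741 bp from 16798859, 1965 bp from 16718162 and 3034 bp from 16948873. For the Antp summits at 6912569, 6912780 and 6914554 the distances were 7887, 8098 and 9872 bp.

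Long summit-free stretches crossed both complexes. One of 93.8 kb, from 6818814 to 6912569, held the whole Scr gene, and 2.83% of all 7242 gaps between neighbouring summits were as long. Dfd lay inside a stretch of 49.2 kb and abd-A inside one of 60.2 kb, and 8.37% and 6.06% of gaps were as long. The longest of the bithorax complex, 87.4 kb, ended at the first Abd-B summit, and 3.16% of gaps were as long. The median gap in the genome was 5.32 kb. Just outside the windows, the nearest summit lay 1036 bp beyond the pb window at the promoter of Ama, a gene of the Antennapedia complex that encodes an immunoglobulin-domain protein, with 7.30, 1.67 and 2.18. The next nearest lay 5.52 kb beyond the Antp window.

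GC content at the summits was compared with that of their flanks. In the Antennapedia complex, 10 of 13 summits had a lower GC content in the 201 bases at the summit than in the flanking windows centred 500 bp away, with medians of 32.3% and 42.8%. In the bithorax complex 4 of 8 did, with medians of 35.8% and 36.2%, and over all reproducible summits 79.5% did. The Abd-B intron summit at 16948873 had 45.3% against 35.6% in its flanks and the CG18622 summit 45.8% against 35.1%, while the lab summit had 27.9% against 49.5%. Summit medians were closer between the complexes than flank medians, and the summit values overlapped, from 26.4% to 40.8% and from 26.4% to 47.3%. The replicate lists hold mostly the same positions, so their values describe the spread and do not test the pattern, which was noticed in the data. There the mean GC at summits minus flanks was -16.0, -10.5 and -9.18 percentage points in the Antennapedia complex (-11.9 ± 3.60, SD, n = 3). In the bithorax complex it was -0.498, 2.99 and 1.77 (1.42 ± 1.77, SD, n = 3), and over all summits -7.38 ± 1.59 (SD, n = 3). The complexes thus differed by 13.3 ± 2.26 points (SD, n = 3) in this measure, and by 1.82 points over all candidates.

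**Figure D4:**
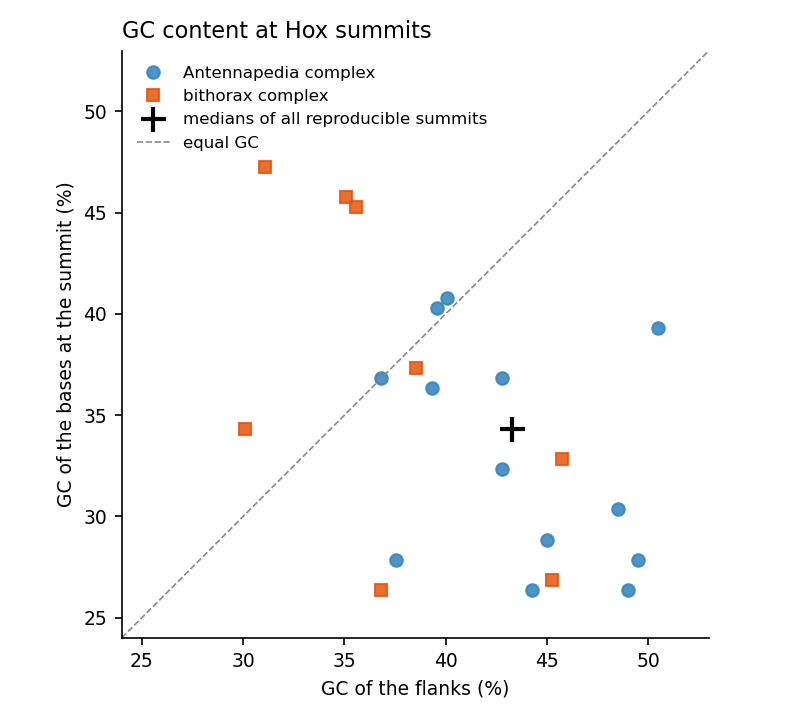
GC content at each Hox summit against that of its flanking windows, in percent, by complex, with a dashed diagonal at equal values and a cross at the medians of all reproducible summits. Most Antennapedia points, 10 of 13, lie below the diagonal, and 4 of 8 bithorax points do.

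Short motifs were counted on both strands in the 301 bases at each summit and are descriptions of the sequence, not sites. GAGAG, bound by GAGA factor, was present at 11 of 21 Hox summits (52.4%), beside 36.5% of all reproducible summits and 35.7% of the Hox flanking windows. TAATTA, a core bound by many homeodomains, was at 7 (33.3%, beside 21.0% of all summits and 21.4% of Hox flanks). GCCAT, the core of the Polycomb recruiter Pho, was at 8 (38.1%, beside 37.2% and 52.4%), and TTTATG, favoured by Abd-B class homeodomains, at 5 (23.8%, beside 31.9% and 38.1%). TATCGATA, the DREF motif, was at none, beside 1.67% and 4.76%. CACTG was chosen after seeing the data, as the core of CACTGAGA, the run of 8 bases with the largest excess at summits over flanks. CACTG was at 12 Hox summits (57.1%, beside 61.6% and 40.5%). The printed Ubx intron, Antp start site, mid-gene Abd-B intron and CG18622 sequences each hold it 2 times. CACTGAGA itself was in none of the 21 Hox windows and in 4.82% of the other summits.

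The gene whose summit numbers in the 3 replicate lists were closest to those of Antp (8, 7 and 6) among 51 genes with windows within 10% of its length was CG45263 (8, 7 and 7). The RNA-binding protein gene msi had the same numbers as CG45263, and the splicing regulator gene Rbfox1 had 6, 7 and 7. The median of the 51 genes was 8 reproducible summits, beside 6 for Antp.

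Related genes were read from lists chosen with earlier results of these data known, each by the presence of a promoter summit, beside 15.4% of protein-coding genes. Of the other genes of the complexes, 2 of 5 had one (bcd and Ama, not zen, zen2 or ftz). Of the Hox cofactors and partners exd, hth, tsh, tio, disco and disco-r, 0 of 6 had one. Of 13 known Hox targets, 5 had one: Dll, the limb gene, rho, which activates EGF receptor ligands, vvl, a POU factor gene, fkh, the salivary gland determinant, and CrebA, a secretory pathway regulator. The strongest of these was fkh, with 3.24, 4.44 and 4.19 (3.96 ± 0.631, SD, n = 3). The summits at Dll, rho, vvl and CrebA were weaker, at 1.97 ± 1.47, 2.03 ± 0.727, 1.98 ± 0.945 and 1.69 ± 0.861 (SD, n = 3). In the same order they ranked 5876, 6033, 6543 and 6482 among the reproducible summits. Replicate 2 gave them 0.759, 1.39, 1.17 and 0.776, so Dll and CrebA lay under the median candidate there. The summits of Dll, rho, vvl, fkh and CrebA lay 39, 30, 270, 401 and 264 bp from a start site.

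Of 18 Polycomb and Trithorax group genes, which keep Hox genes off or on, 6 had a promoter summit, beside 15.4% of protein-coding genes. The one at ph-p, a subunit gene of Polycomb repressive complex 1, had 34.3, 32.5 and 39.6 (35.5 ± 3.72, SD, n = 3), above every Hox summit in each replicate. The one at brm, the ATPase gene of the Brahma remodelling complex, had 25.4, 15.2 and 13.0 (17.9 ± 6.60, SD, n = 3). At E(z), the histone methyltransferase gene, it was 10.8 ± 4.18, and at Trl, which encodes GAGA factor, 8.12 ± 0.564 (SD, n = 3). The neighbouring gene ph-d had 4.74 ± 1.67 and Psc had 3.18 ± 0.476 (SD, n = 3). The summits lay 465 bp from a start site at ph-p, 156 at brm, 57 at E(z), 123 at Trl, 329 at ph-d and 170 at Psc. The narrower promoter window of 250 bp was run for the Hox genes only. No promoter summit was found at Pc, Sce, Su(z)12, esc, Pcl, pho, Scm, Asx, caly, trx, ash1 or z.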

How the data were processed

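The authors deposited 1 list of candidate peaks per replicate, 1 from pooled alignments and 1 reproducible list from the irreproducible discovery rate step, in dm6, with 1 control file shared by the replicates, per the file headers. Which aligner, caller and cutoff were used is not given in the sources used here. Per the file headers and values, the deposited lists give a signal per peak on the caller's scale. The deposited −log10 q-value was described and not used for ranking, and the summit offset, another deposited column, placed each summit. The 7248 reproducible peaks were the strongest pooled candidates.

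Genes came from Ensembl release 115. Windows, matching, motifs and the exact permutation tests were computed with Python 3.11.15, numpy 2.4.6 and scipy 1.17.1, and the scripts were tested on simulated data. Complexes were compared within replicates. The genes named are the 8 Hox genes, genes with a start site within 500 bp of a summit in the windows, the genes nearest to the 10 strongest of these summits, the 3 genes most like Antp, and list members with a promoter summit. Names of list members without one were added to account for the lists, except those of the known Hox targets. Genes that overlap a summit, and the tRNA gene nearest to the summit at 6818814, were also named. Members and lists were chosen with earlier results of these data known. Alternatives covered flanks, match distance, promoter window, list length and each replicate left out.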

Additional observations from a re-analysis of the deposited data

How the results depend on the processing

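Counting gene bodies only gave 11 Hox summits and the 3624 strongest gave 10. The log2 density ratio of bithorax to Antennapedia complex turned to 0.94 in the 3624 strongest of each list and ranged from -0.42 to 0.12 with 1 replicate left out, the highest without replicate 1. The log2 signal ratio turned to -0.010 with flanks of 50 kb and to -0.12 among the 3624 strongest. Recovery in all 3 replicates was 100% in the full candidate lists, beside 93.6% of all reproducible summits. It was 47.6% (10 of 21) with matching within 100 bp and 50% (5 of 10) among the 3624 strongest. For those settings the share of all reproducible summits was not computed. Over the 11 alternatives run, recovery ranged from 47.6% to 100%. The number of Hox genes with a promoter summit was 0 with a window of 250 bp, with the 5-prime end of the gene record alone and among the 3624 strongest, and 0 to 1 with a replicate left out. The cause of these changes was not tested. The lower Hox density than in the genome kept the direction of its mean under the 9 alternatives run. Over all candidates, 1 of them, that mean was only -0.07 ± 0.30 (SD, n = 3). There replicate 1, at 0.27, went against replicates 2 and 3, at -0.23 and -0.27. The GC difference between the complexes, 13.3 points, was 9.16 in gene bodies, 10.7 among the 3624 strongest and 1.82 over all candidates, and kept its direction under the 10 run. These alternatives were chosen after seeing the data, as was leaving out summits at start sites of other genes. With 3 replicates no test here can give a p below 0.25, and unknown depth leaves no floor for an absent summit.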
